A study of Mus musculus with 13 samples.

Results

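Troy, the Lgr receptors and the ubiquitin ligases on which Rspondins act were followed through 13 arrays of mouse stomach. The set holds 6 genes: Tnfrsf19, which encodes Troy, the receptors Lgr4, Lgr5 and Lgr6, and the ligases Rnf43 and Znrf3. All 6 were measured, each by 1 probeset that carries a single gene symbol, among 18820 genes in all. Values are log2 intensities of the authors' normalised arrays, so a difference of 1 is a doubling, and levels are compared between samples of the same gene only.

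Rspondins are secreted proteins that bind the Lgr receptors. The bound pair draws Rnf43 and Znrf3 off the cell surface. These ligases otherwise mark Frizzled and Lrp, the receptors of Wnt ligands, for removal, so Rspondin makes a cell more responsive to Wnt. Lgr5, Rnf43, Znrf3 and Tnfrsf19 are themselves known to be induced by Wnt signalling in gut epithelium, and Lgr5 marks stem cells of the intestine and of the stomach's pylorus. Troy belongs to the TNF receptor family and has been described as a brake on Wnt signalling in Lgr5-positive intestinal stem cells.

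In the first experiment, cells came from mice with an EGFP-ires-CreERT2 cassette at the start of Tnfrsf19, where the gene's own regulatory sequences drive EGFP and the inducible Cre. Troy-positive chief cells, which secrete digestive enzymes, gave 3 arrays, and Troy-positive parietal cells, which secrete acid, gave 2. Each of these arrays held about 100000 sorted cells pooled from 10 mice. Whole glands of the gastric corpus, with no strain stated in their labels, gave 2 arrays as the reference. The second experiment used organoids, each culture begun from single sorted Troy-positive chief cells, in EGFNWR medium (3 arrays) or in ER medium (3 arrays). EGFNWR medium held EGF, gastrin, FGF10, Noggin, Wnt3a and Rspondin. ER medium held only EGF and Rspondin, so both media held Rspondin, and the groups differed in gastrin, FGF10, Noggin and Wnt3a together. Arrays of a group carry the letters a, b and c. Nothing in the labels ties the organoid cultures to separate animals, so p-values there measure the spread between these arrays, which may be technical.

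Some arrays stood apart from their group. Over all probesets, chief array c correlated at 0.979 and 0.982 with the parietal arrays and at 0.950 and 0.961 with the other chief arrays, and chief array a correlated at 0.978 with gland array a. The parietal proton pump gene Atp4b read 12.65 to 13.28 in chief arrays and 13.22 to 13.29 in parietal arrays, and the chief cell gene Pgc, which encodes pepsinogen C, read 13.14 and 13.40 in parietal arrays. Other markers on the same lists differed more: the pepsinogen gene Pga5 read 8.90 to 10.79 in chief and 7.22 and 7.25 in parietal arrays, and the transporter gene Slc26a7 read 5.50 to 8.31 in chief and 9.29 and 8.96 in parietal arrays. Chief array b had the highest values for 4 of 5 squamous markers, with Krt5 at 11.85 against 4.18 to 6.37 on the other arrays. The fifth, Krt4, read 6.95 there and 7.53 to 10.42 in organoids. ER array b read higher than the other ER arrays for some chief and neck cell genes. Cblif, which encodes intrinsic factor, read 9.81 there against 5.04 and 4.81, and the mucin gene Muc6 read 10.08 against 6.84 and 5.52. Others did not set it apart: on ER arrays a, b and c the neck cell gene Tff2 read 12.16, 12.36 and 12.33. The chief cell gene Clps read 10.35, 10.41 and 10.77. Array medians lay between 5.01 and 5.30. Without detection calls, a value below its array's median may be background, so the size of a difference that involves one is not settled.

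Promoter sequence is given for members that fell together between the organoid media and for Lgr4, which did not fall with them. Windows of 250 bases up to an annotated start (RefSeq, GRCm38.p6) were matched by symbol for 4 of the 6 members, giving 6 windows: 2 each for Tnfrsf19 and Rnf43, and 1 each for Lgr4 and Lgr6. Lgr5 and Znrf3 are named only. The first Tnfrsf19 window is chr14:61037988-61038237 on the minus strand, and the other is chr14:61046856-61047105 on the minus strand. The Rnf43 windows are chr11:87662837-87663086 and chr11:87699647-87699896, both on the plus strand. The Lgr4 window is chr2:109917397-109917646 on the plus strand. Capitals mark a match to CTTTGA, the core of the TCF/LEF motif, or to its reverse complement TCAAAG.
Tnfrsf19 window 61037988: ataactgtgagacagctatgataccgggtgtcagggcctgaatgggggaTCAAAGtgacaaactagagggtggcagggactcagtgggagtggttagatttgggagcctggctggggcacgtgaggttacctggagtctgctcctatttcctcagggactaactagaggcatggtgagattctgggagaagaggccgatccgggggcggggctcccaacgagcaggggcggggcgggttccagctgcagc
Tnfrsf19 window 61046856: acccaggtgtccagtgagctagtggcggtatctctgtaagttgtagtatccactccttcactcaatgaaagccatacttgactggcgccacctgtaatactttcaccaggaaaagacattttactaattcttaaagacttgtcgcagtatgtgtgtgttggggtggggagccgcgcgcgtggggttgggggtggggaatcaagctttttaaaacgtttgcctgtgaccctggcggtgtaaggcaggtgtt
Rnf43 window 87662837: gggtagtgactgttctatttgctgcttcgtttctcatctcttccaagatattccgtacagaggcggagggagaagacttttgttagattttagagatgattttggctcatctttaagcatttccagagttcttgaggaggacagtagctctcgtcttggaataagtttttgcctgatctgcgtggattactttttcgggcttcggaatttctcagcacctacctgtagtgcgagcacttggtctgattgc
Rnf43 window 87699647: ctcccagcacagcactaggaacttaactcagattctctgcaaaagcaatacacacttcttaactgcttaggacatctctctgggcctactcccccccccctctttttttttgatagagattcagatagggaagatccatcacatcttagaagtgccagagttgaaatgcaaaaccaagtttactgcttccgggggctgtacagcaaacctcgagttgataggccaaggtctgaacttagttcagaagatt
Lgr4 window 109917397: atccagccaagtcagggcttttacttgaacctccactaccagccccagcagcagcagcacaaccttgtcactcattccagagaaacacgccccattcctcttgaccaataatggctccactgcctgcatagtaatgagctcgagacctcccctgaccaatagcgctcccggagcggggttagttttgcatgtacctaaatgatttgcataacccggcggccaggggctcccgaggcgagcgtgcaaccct
These letters occurred in 1 of the 6 member windows, in the first Tnfrsf19 window, as TCAAAG starting 201 bases before the annotated start. Of all 32851 windows of the same length, 4544, or 13.8%, held a match on either strand. A match is a description of the letters only, and these arrays measured no binding.

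The members differed widely in how much they varied. Lgr5 spanned 6.25 log2 units over the 13 arrays, with an SD of 2.23, a spread at percentile 99.2 of all genes. Tnfrsf19 spanned 4.34 units (SD 1.55, percentile 97.2). Znrf3 and Rnf43 spanned 2.56 and 2.19 units, at percentiles 87.9 and 84.8. Lgr4 spanned 1.37 units (percentile 55.7), close to the typical gene. Lgr6 spanned 1.82 units, and its single high value, 5.57 in chief array b, accounts for the upper end of that range. Lgr4, Rnf43 and Znrf3 lay above the array median on all 13 arrays, whereas Lgr6 lay below it on every array except chief b.

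**Figure D1:**
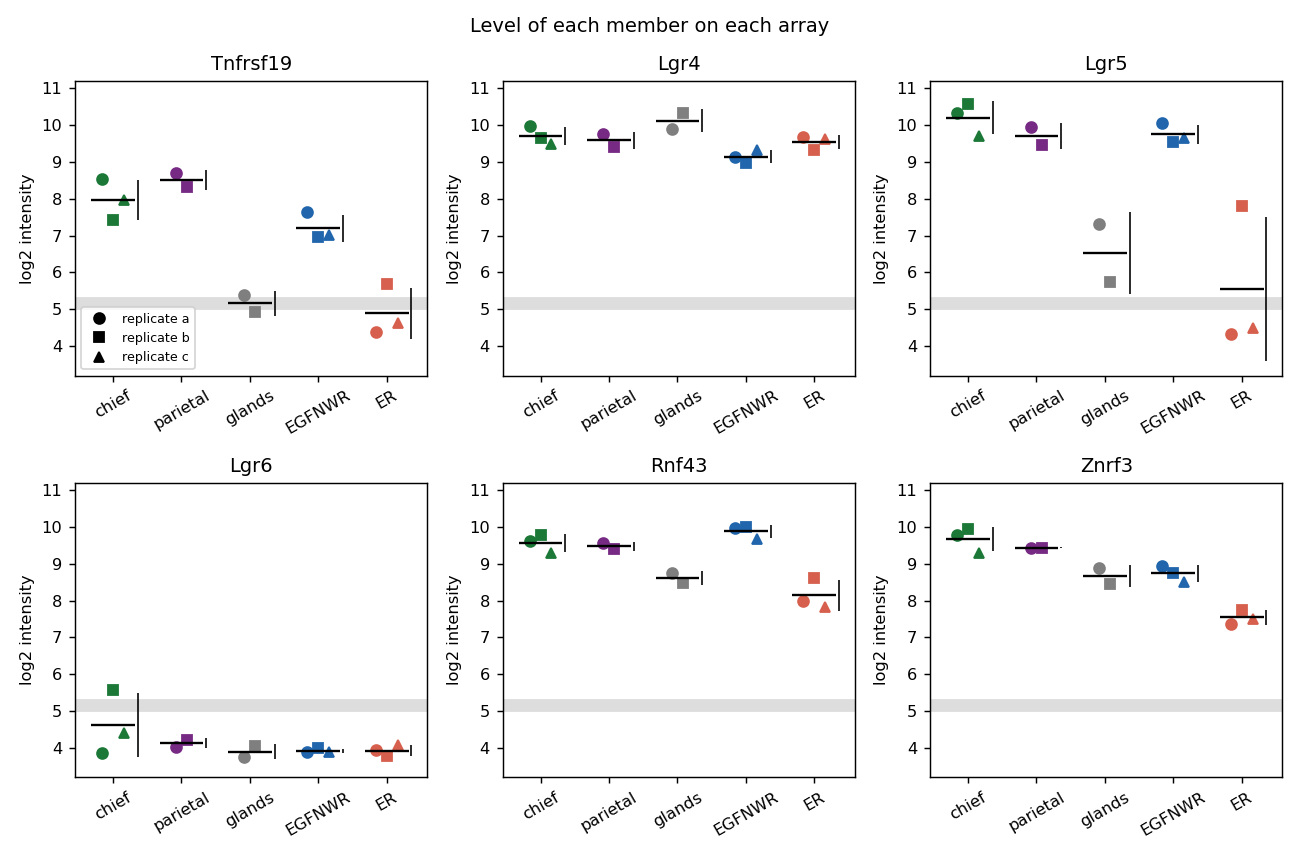
Log2 intensity (vertical axis) of the 6 members on each of the 13 arrays, by group; point shapes are replicate letters, the black bar is the group mean with a line of 1 SD either side, and the grey band is the range of array medians, 5.01 to 5.30. Lgr5 and Tnfrsf19 are high in chief, parietal and EGFNWR arrays and low in gland and ER arrays, Lgr4 stays between 8.97 and 10.34, and Lgr6 lies in or below the band on every array except chief b.

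Troy itself was most abundant in the sorted cells, which were chosen by its reporter. Tnfrsf19 read 8.53, 7.43 and 7.96 in chief arrays a, b and c, and 8.71 and 8.32 in parietal arrays. Gland arrays gave 5.40 and 4.92, EGFNWR organoids 7.63, 6.96 and 7.01, and ER organoids 4.37, 5.68 and 4.63. Every sorted array was thus above every gland array, and every EGFNWR array above every ER array. The group means ran from parietal cells (8.52 ± 0.28, SD, n = 2) over chief cells (7.97 ± 0.55, n = 3) and EGFNWR organoids (7.20 ± 0.37, n = 3) to glands (5.16 ± 0.34, n = 2) and ER organoids (4.89 ± 0.69, n = 3). Parietal and chief arrays overlapped, as did chief and EGFNWR arrays and gland and ER arrays; the gap between EGFNWR organoids and glands was the only one between neighbours in this order without overlap. Gland array b and ER arrays a and c were below their array medians.

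Lgr5, the stem cell receptor, followed the same order of high and low groups. It read 10.32, 10.58 and 9.71 in chief arrays, 9.95 and 9.45 in parietal arrays, and 10.05, 9.54 and 9.66 in EGFNWR organoids. Gland arrays gave 7.31 and 5.73, and ER organoids gave 4.33, 7.80 and 4.50. All 8 arrays of the first 3 groups lay above both gland arrays and all 3 ER arrays. Chief (10.20 ± 0.45), EGFNWR (9.75 ± 0.27) and parietal (9.70 ± 0.35) means overlapped in their arrays, and the next group, glands (6.52 ± 1.12), lay below all of them. ER organoids (5.54 ± 1.96) had the widest spread because array b stood more than 3 units above the other 2, and it overlapped the glands.

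The other Rspondin receptors did not share that pattern. Lgr4, the most broadly expressed of the 3 in epithelia, read 9.97, 9.65 and 9.50 in chief arrays, 9.75 and 9.42 in parietal arrays, 9.90 and 10.34 in glands, 9.15, 8.97 and 9.32 in EGFNWR organoids, and 9.69, 9.33 and 9.63 in ER organoids. Glands had the highest mean (10.12 ± 0.31) and EGFNWR organoids the lowest (9.15 ± 0.18), and only the step from ER to EGFNWR organoids was free of overlap between neighbours. Lgr6, known from skin and hair follicle, read 3.75 to 4.40 on all arrays except chief b, at 5.57. In chief array b the squamous markers Krt5, Krt14 and Trp63 read 11.85, 10.04 and 8.33, and the part of that signal in the Lgr6 value was not tested.

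The ligases resembled Lgr5 with smaller steps. Rnf43 read 9.61, 9.79 and 9.29 in chief arrays, 9.55 and 9.39 in parietal arrays, 8.75 and 8.48 in glands, 9.96, 10.01 and 9.68 in EGFNWR organoids, and 8.00, 8.61 and 7.82 in ER organoids. Its means were 9.88 ± 0.18 in EGFNWR organoids, 9.56 ± 0.25 in chief cells and 9.47 ± 0.11 in parietal cells, which overlapped, and 8.62 ± 0.19 in glands and 8.14 ± 0.41 in ER organoids, which overlapped with each other only. Znrf3, its close relative, read 9.78, 9.93 and 9.30 in chief arrays, 9.44 and 9.42 in parietal arrays, 8.88 and 8.46 in glands, 8.95, 8.76 and 8.50 in EGFNWR organoids, and 7.37, 7.75 and 7.50 in ER organoids. Unlike Rnf43, it was lower in every EGFNWR array than in every chief or parietal array, and EGFNWR organoids overlapped with glands.

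The first comparison asked whether the 2 Troy-positive cell types differ in this axis. None of the 6 members passed the threshold between chief and parietal cells (limma, Benjamini-Hochberg adjusted p of 0.05 over all genes), and their arrays overlapped for all 6. The background was 0% of genes called (0 of 18820), with 2281 genes, 12.1%, at an unadjusted p under 0.05 and none of the members among them; 30.1% of genes had no overlap. Tnfrsf19 differed by -0.54, chief minus parietal (95% interval -1.31 to 0.23, adjusted p = 0.536), and Lgr5 by 0.50 (-0.57 to 1.58, adjusted p = 0.702). Intervals were narrower for Rnf43, at 0.09 (-0.39 to 0.58), Lgr4, at 0.12 (-0.42 to 0.66), and Znrf3, at 0.24 (-0.32 to 0.80). A doubling in either direction lies outside the last 3 intervals, while the intervals of Tnfrsf19, Lgr5 and Lgr6 (0.49, -0.53 to 1.51) reach one. Chief array c, which resembled the parietal arrays, bears on this count: without it 1319 genes passed, still none of them a member. With chief array c included, 0 of 6 measured chief markers passed in limma (differences -0.19 to 2.82). Of 8 parietal markers, 0 passed (-2.175 to -0.15). Each population also read high for markers of the other. Cblif was at 12.25 and 12.06 in parietal arrays, and Atp4a at 12.62 to 13.22 in chief arrays. The part of such mixing in the members' intervals was not tested.

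The pathway around the members gave the same count in this comparison. In limma's test, among 30 measured genes of Rspondins, Wnt receptors and their relay, 17 other Wnt target genes, 23 TNF receptor relatives and 4 other Lgr family genes, 0 passed, with 4, 6, 4 and 0 of them at an unadjusted p under 0.05. The list called TNF receptor relatives, or Troy's relatives, holds receptors of the family together with partners such as Traf2, Edaradd, Rtn4r and Lingo1. Without chief array c, 3 pathway genes, 5 Wnt targets and 2 TNF receptor relatives passed. The count over all genes also rose from 0 in that setting, as given above. These counts are therefore not read as a result about the lists. The median difference was 0.18 for the members, 0.24 for the Wnt targets and -0.04 for all genes.

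Against whole glands, Tnfrsf19 and Lgr5 were higher in both sorted populations. Chief cells exceeded glands by 2.81 for Tnfrsf19 (SE 0.33, limma adjusted p = 0.0199, 7.03-fold) and by 3.68 for Lgr5 (SE 0.46, adjusted p = 0.0264, 12.8-fold). These were 2 of 6 members, both higher, where 0.478% of all genes passed in either direction and 0.128% were higher. With the replicate letter as a block, neither of these members passed, and no other gene did. Since the cells were sorted on the Tnfrsf19 reporter, its excess restates the sort, in which Lgr5 was not used. The sorted cells also carried the cassette at Tnfrsf19, while the strain of the glands is not stated. The part of that allele in the Tnfrsf19 values was not tested. In such bulk samples, more cells of a type and more RNA per cell cannot be told apart.

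Neither ligase passed. Rnf43 was at 0.95, chief minus glands (95% interval 0.46 to 1.44, adjusted p = 0.122) and Znrf3 at 1.00 (0.44 to 1.56, adjusted p = 0.141), with no overlap between the groups for Tnfrsf19, Lgr5, Rnf43 and Znrf3, where 31.4% of all genes had none. With all 13 arrays in 1 fit both ligases passed, at adjusted p = 0.0341 for Rnf43 and 0.0214 for Znrf3. Lgr4 was at -0.41 (-0.95 to 0.12, adjusted p = 0.434) and Lgr6 0.72 (-0.30 to 1.74, adjusted p = 0.464), and both overlapped.

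Parietal cells gave values of like size against the same gland arrays, so the comparisons share their reference and are set side by side only. Tnfrsf19 was 3.35 higher (SE 0.36, limma adjusted p = 0.0168, 10.2-fold) and Lgr5 3.18 higher (SE 0.51, adjusted p = 0.0364, 9.06-fold). Here 1.62% of genes passed in either direction and 0.228% were higher. Rnf43 was at 0.85 (95% interval 0.32 to 1.39, adjusted p = 0.102), Znrf3 at 0.76 (0.15 to 1.37, adjusted p = 0.165), Lgr4 at -0.54 (-1.12 to 0.05, adjusted p = 0.272) and Lgr6 at 0.23 (-0.89 to 1.35, adjusted p = 0.792). All members except Lgr6 were free of overlap, as were 66.4% of all genes with 2 arrays a side. The Lgr5 call was lost with repeated quantile normalisation (3.24, adjusted p = 0.0547). In a fit of all 13 arrays Rnf43 and Znrf3 passed (adjusted p = 0.0428 and 0.0496), and Rnf43 also with the replicate letter as a block (adjusted p = 0.0494).

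The calls against glands rest on few arrays. With 1 of 2 gland or parietal arrays left out, the lone array is assumed to vary like the other groups, and fewer arrays are left to make a call. Without gland array b, no member passed: Lgr5 then stood at 2.89 (adjusted p = 0.0928) against chief and 2.39 (adjusted p = 0.169) against parietal cells, and Tnfrsf19 at 2.57 (adjusted p = 0.168) and 3.12 (adjusted p = 0.128). Without chief array b, Lgr5 was at 3.50 (adjusted p = 0.0745), and without either parietal array neither gene passed between parietal cells and glands, Tnfrsf19 at 3.16 or 3.55 (adjusted p = 0.271 or 0.218) and Lgr5 at 2.93 or 3.43 (adjusted p = 0.32 or 0.266). Handling moved with these groups as well. Sorted cells were trypsinised and passed through a sorter while glands were processed directly, and the mean of 8 immediate early genes, which rise with handling, was 9.98 to 11.19 in chief and 9.32 to 9.59 in parietal arrays against 7.54 to 7.63 in glands. Glands also had higher marker means of other cell types. The mean of 6 tuft cell markers was 6.47 to 6.98 against 4.38 to 4.76 in sorted arrays, with 4 of 6 lower in each sorted population. The mean of 5 enteroendocrine markers was 9.62 to 10.42 against 7.78 to 8.93, with 2 of 5 lower in each. Of all genes, 0.351% were lower in chief cells and 1.39% in parietal cells than in glands. The mean of 4 pit cell markers was 12.63 to 12.94 against 9.71 to 12.26 in chief and 10.34 to 10.62 in parietal arrays. None passed the threshold in limma, and all 4 had an unadjusted p under 0.05 in each. By the ranks of the members' p-values, the share of all genes under 0.05 lay between 2.39% and 26.1% for chief cells. For parietal cells it lay between 12.7% and 25.4%. The part of these cells in the member values was not tested. Handling and cell type cannot be told apart in these comparisons.

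Of the surrounding genes, 1 passed between chief cells and glands. Smoc2, a secreted calcium-binding protein known from Lgr5-positive intestinal stem cells, read 7.36, 7.48 and 6.75 in chief arrays and 5.16 and 5.12 in glands, and was higher by 2.06 (SE 0.25, limma adjusted p = 0.0238). The count of Wnt targets was 0 without gland array b or chief array b, 2 without gland array a and 4 without chief array c. Axin2, a feedback inhibitor used as a standard Wnt readout, read 6.98, 7.10 and 6.20 in chief, 6.75 and 6.30 in parietal and 5.25 and 4.30 in gland arrays. Its differences, 1.99 for chief (adjusted p = 0.074) and 1.75 for parietal cells (adjusted p = 0.073), did not pass. In limma, 0 pathway, TNF receptor or Lgr family genes passed for chief cells, with 7, 5 and 0 at an unadjusted p under 0.05. The share of all genes under that p lay between 2.39% and 26.1%. For parietal cells 0 passed of the pathway genes, Wnt targets, TNF receptor relatives and Lgr family genes. Of these, 7, 8, 7 and 1 had an unadjusted p under 0.05 in limma, where the share of all genes lay between 12.7% and 25.4%. Tnfrsf21, a TNF receptor relative also known as death receptor 6, came closest at -3.04 in parietal cells (SE 0.58, adjusted p = 0.051). The Wnt target median was 0.73 for chief cells, against 0.05 for all genes, and 0.27 for parietal cells, against 0.13.

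**Figure D2:**
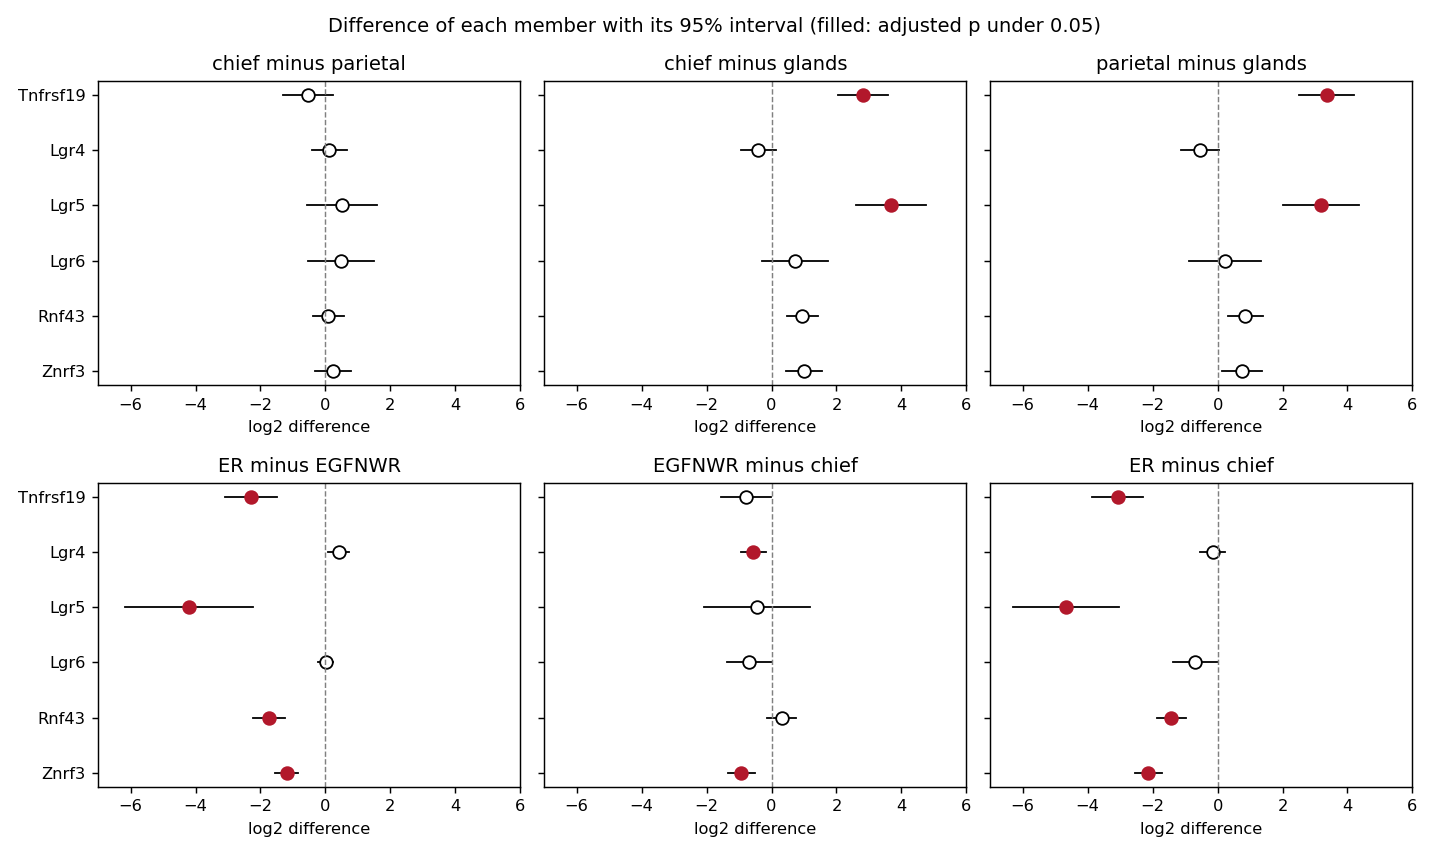
Log2 difference (horizontal axis) with its 95% interval for each member in the 6 comparisons; filled points passed an adjusted p of 0.05 in limma. Lgr5 and Tnfrsf19 are filled in both comparisons with glands, all of Tnfrsf19, Lgr5, Rnf43 and Znrf3 are filled in ER against EGFNWR organoids, and no member is filled between chief and parietal cells.

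Between the organoid media 4 members fell. In ER medium, without added Wnt3a, Noggin, FGF10 and gastrin, Lgr5 fell by 4.21 on the log2 scale (SE 0.84, limma adjusted p = 0.0135, 18.5-fold). Tnfrsf19 fell by 2.31 (SE 0.34, adjusted p = 0.00568, 4.95-fold), Rnf43 fell by 1.74 (SE 0.21, adjusted p = 0.00446, 3.34-fold) and Znrf3 fell by 1.20 (SE 0.15, adjusted p = 0.0045, 2.29-fold). Thus 4 of 6 members were lower, where 10.1% of all genes were lower and 19.2% passed in either direction. The Lgr5 call was lost without EGFNWR array a (-4.06, adjusted p = 0.0583) and with limma's trend and robust settings (adjusted p = 0.0629). Since ER arrays a and c read below their medians for Lgr5 and Tnfrsf19, the size of these 2 steps is not settled, whereas Rnf43 and Znrf3 were above the median on every organoid array.

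Lgr4 did not fall. It was at 0.40, ER minus EGFNWR (95% interval 0.09 to 0.72, SE 0.13, adjusted p = 0.08), with every ER array above every EGFNWR array. With the replicate letter as a block its difference was the same with an SE of 0.09 (adjusted p = 0.0272), so Lgr4 passed in the paired fit and not in the unpaired one. Lgr6 differed by 0.00 (95% interval -0.23 to 0.24, adjusted p = 0.987) near the floor of the arrays. All members except Lgr6 were free of overlap, against 36% of all genes.

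ER array b lay apart in these members too. It had the highest value of the 3 ER arrays for Lgr5 (7.80), Tnfrsf19 (5.68), Rnf43 (8.61) and Znrf3 (7.75), and the lowest for Lgr4 (9.33), so on all 5 genes it lay nearest to the EGFNWR arrays. Its mean over the 3 mucous neck markers was 10.01 against 7.80 and 7.81, and EGFNWR organoids lay between 10.26 and 10.86. Between the media, 2 of these 3 markers were lower in ER organoids and Tff2 was higher, with means of 12.28 against 10.29. Without array b, Lgr5 was at -5.33 (SE 0.17, adjusted p = 9.85e-05) and Tnfrsf19 at -2.70 (adjusted p = 0.00122), Rnf43 was at -1.97 (adjusted p = 0.000856), Znrf3 at -1.30 (adjusted p = 0.0031), and Lgr4 passed at 0.51 (adjusted p = 0.0379). All organoid cultures began from chief cells, and the chief marker mean was 8.07 to 8.23 in EGFNWR and 5.89 to 7.32 in ER medium. Of the 6 measured chief markers, 3 were lower in ER medium and 0 higher. Pit cell markers moved the other way: all 4 rose in ER medium (median 3.42), with a mean of 11.50 to 12.53 against 7.72 to 10.55 in EGFNWR arrays, and ER array b was the lowest of the ER arrays. The 8 parietal markers had a mean of 6.12 to 6.41 in EGFNWR and 6.31 to 6.43 in ER arrays. Of these, 4 lay above the array median on every array of each medium, such as Kcnq1, while Atp4b, at 4.27 to 4.72, lay below it. In limma, 1 of the 8 was higher in ER medium, Aqp4 by 2.15 (adjusted p = 0.00716), and 2 were lower. Of all genes, 9.13% were higher and 10.1% lower. The part of these cell types in the member values was not tested.

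Some other Wnt targets fell as well. Of 17 measured, 6 were lower and 0 higher in ER medium, where 10.1% of all genes were lower and 9.13% higher. Axin2 read 7.30, 7.10 and 6.47 in EGFNWR and 4.06, 5.11 and 4.07 in ER arrays, and fell by 2.54 (SE 0.32, limma adjusted p = 0.00453). Ascl2, the transcription factor that specifies intestinal stem cells, read 8.30, 8.23 and 8.04 against 4.79, 6.22 and 4.36 and fell by 3.07 (SE 0.42, adjusted p = 0.00493). In both genes ER array b was again the highest of the 3. The adhesion receptor Cd44 fell by 2.36 (SE 0.50, adjusted p = 0.0168) and the progenitor transcription factor Sox9 fell by 1.75 (SE 0.24, adjusted p = 0.00471). Sp5 and the Wnt inhibitor Nkd1, outside the naming rule, fell by 1.13 and 1.08. Not every target followed: Myc was at -0.23 (adjusted p = 0.265) and the cyclin Ccnd1 at -0.20 (adjusted p = 0.544). The list's median was -0.23, against 0.01 for all genes and -1.47 for the members.

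Upstream of these targets, 4 of 30 pathway genes passed, 2 in each direction, where 9.13% of all genes rose and 10.1% fell. The count was 2 without EGFNWR array a or ER array a. Among the Frizzleds, the receptors that Rnf43 and Znrf3 clear, Fzd2 read 6.68, 6.62 and 6.71 in EGFNWR and 4.12, 5.07 and 4.15 in ER arrays and fell by 2.22 (SE 0.24, limma adjusted p = 0.00446). Fzd3 fell by 0.79 (SE 0.17, adjusted p = 0.0185). Fzd5 moved the other way, from 7.76, 7.66 and 8.09 to 9.08, 8.68 and 9.28, a rise of 1.18 (SE 0.18, adjusted p = 0.00601), and Dvl1, which relays the Frizzled signal in the cytoplasm, rose by 0.58 (SE 0.12, adjusted p = 0.0168). The co-receptor genes Lrp5 and Lrp6 were at -0.10 (adjusted p = 0.49) and 0.11 (adjusted p = 0.487), and Ctnnb1, which encodes beta-catenin, at 0.18 (adjusted p = 0.402). The ligands of the axis, Rspo1 to Rspo4, lay between 3.56 and 5.06, below the median on all 13 arrays, and none passed between the media. The pathway median was 0.09.

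Troy's receptor family moved in both directions. Of 23 measured relatives and partners, 5 rose and 1 fell in ER medium, where 9.13% of all genes rose and 10.1% fell. The receptor for tumour necrosis factor Tnfrsf1b rose by 1.33, Tnfrsf21 by 1.14, the lymphotoxin receptor Ltbr by 0.52 and Tnfrsf1a by 0.44 (limma adjusted p = 0.00452, 0.00541, 0.0182 and 0.0128), while the death receptor Fas fell by 0.80 (SE 0.20, adjusted p = 0.0309). The fifth that rose was Tnfrsf11a, the receptor of RANK ligand, named outside the rule, at 0.36. Of the 4 other Lgr family genes, 0 passed in limma, and 0 had an unadjusted p under 0.05. The count of relatives was 2 without ER array a, 3 without EGFNWR array a or b, and 4 to 6 without each of the others.

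**Figure D3:**
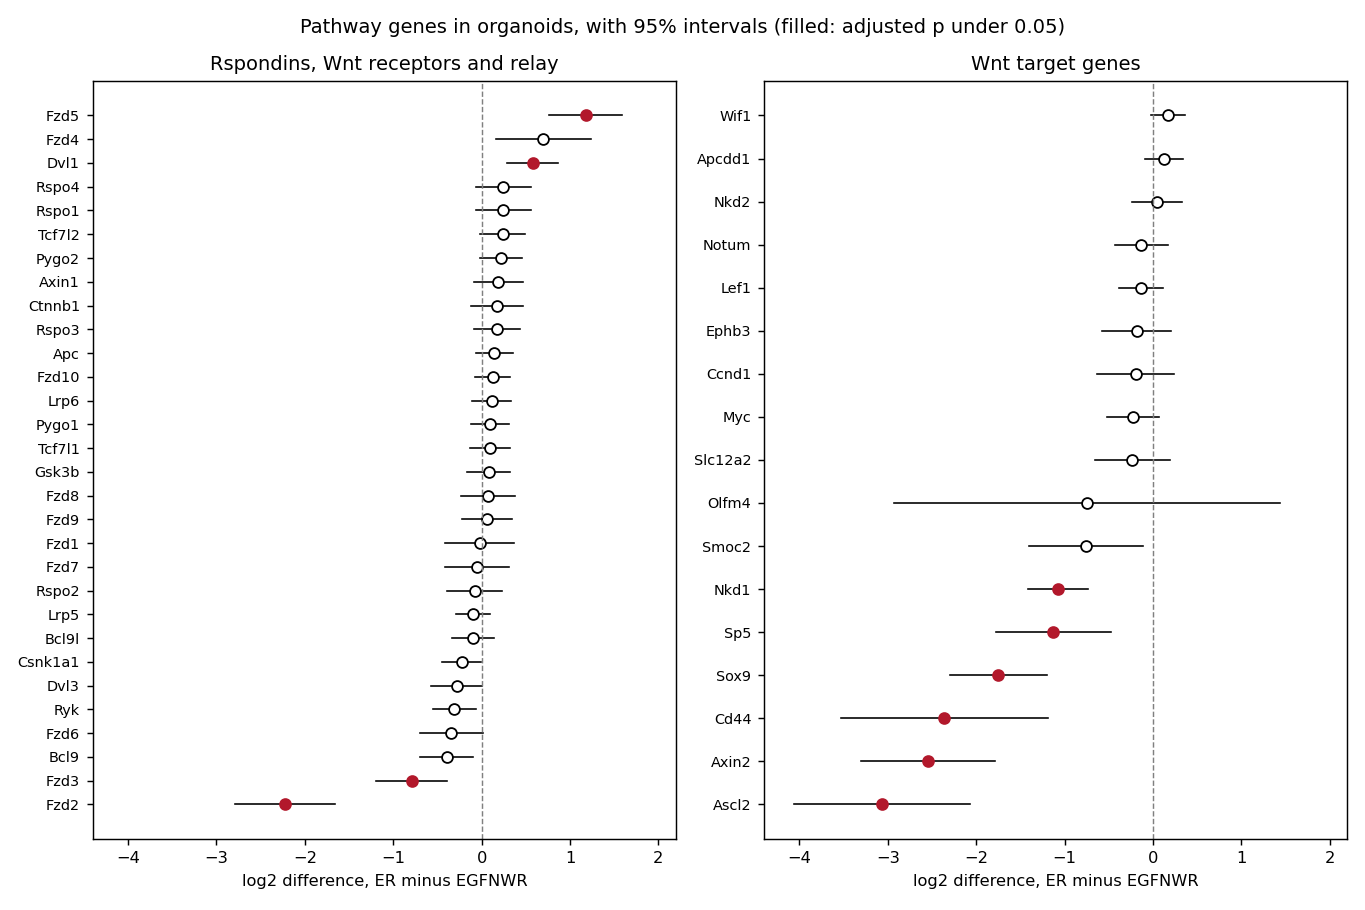
Log2 difference, ER minus EGFNWR organoids (horizontal axis), with 95% intervals for 30 genes of the Rspondin and Wnt pathway and 17 other Wnt targets; filled points passed an adjusted p of 0.05 in limma. In the target list 6 genes lie to the left with filled points and 0 to the right, while the pathway list has 2 filled points on each side.

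Organoids were also set against the chief cells they came from, although experiment, culture and group cannot be told apart there. Between EGFNWR organoids and chief cells, 2 of 6 members passed, both lower, where 16.2% of all genes were lower and 40.3% passed in either direction: Znrf3 at -0.93 (SE 0.19, limma adjusted p = 0.00231) and Lgr4 at -0.56 (SE 0.18, adjusted p = 0.0261). These were the members without overlap, against 48.1% of all genes. Lgr5 differed by -0.45 (95% interval -2.08 to 1.17, adjusted p = 0.644) and Rnf43 by 0.32 (-0.13 to 0.77, adjusted p = 0.228), whereas Tnfrsf19 was at -0.77 (adjusted p = 0.0995) and Lgr6 at -0.69 (adjusted p = 0.102). The Lgr4 call was lost without EGFNWR array a (-0.56, adjusted p = 0.0653), EGFNWR array b (-0.47, adjusted p = 0.102) or chief array a (-0.43, adjusted p = 0.073). It was also lost with median centring (-0.42, adjusted p = 0.109), in a fit of these groups alone (adjusted p = 0.0504) and with the letter as a block (adjusted p = 0.0886). Tnfrsf19 passed without chief array b (-1.04, adjusted p = 0.0437), with repeated quantile normalisation (-0.93, adjusted p = 0.0483) and with the block (adjusted p = 0.0293). Without chief array a, Lgr6 passed at -1.06 (adjusted p = 0.00845).

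ER organoids were below chief cells in 4 members. Set against chief cells, Lgr5 fell by 4.66 (SE 0.74, limma adjusted p = 0.000418), Tnfrsf19 fell by 3.08 (SE 0.35, adjusted p = 4e-05), Znrf3 fell by 2.13 (SE 0.19, adjusted p = 6.93e-06) and Rnf43 fell by 1.42 (SE 0.21, adjusted p = 0.000205). These 4 of 6, all without overlap, compare with 17.1% of all genes lower, 39.9% passing in either direction and 45.4% without overlap. Lgr4 was at -0.16 (95% interval -0.55 to 0.23, adjusted p = 0.508) and Lgr6 at -0.69 (adjusted p = 0.106; -1.06 and 0.00878 without chief array a). The chief arrays serve in both comparisons.

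Around the members, culture and chief cells differed in both directions. Of all genes, 24.1% were higher in EGFNWR and 22.8% in ER organoids than in chief cells, and 16.2% and 17.1% were lower. In EGFNWR organoids 5 pathway genes were higher, with Fzd7 at 2.45, Fzd2 at 1.71, Lrp5 at 1.64 and Ctnnb1 at 0.90, and 9 were lower, led by Fzd4 at -1.56 and Tcf7l1, a repressor of Wnt targets, at -1.09. Of the Wnt targets, 5 were higher, with Ascl2 at 2.70, Ccnd1 at 2.18, Cd44 at 2.15 and Myc at 1.60, and 1 was lower, Smoc2 at -1.65. Axin2 did not pass, at 0.20 (adjusted p = 0.68). In ER organoids Ccnd1 (1.99) and Myc (1.37) were the 2 targets that were higher, and 6 were lower, including Smoc2 at -2.41, Axin2 at -2.35 and Nkd1 at -1.69. Among Troy's relatives, 9 were higher and 4 lower in EGFNWR organoids, with the decoy receptor Tnfrsf11b at 4.51 and the adaptor Edaradd at -2.14, and 9 were higher and 3 lower in ER organoids.

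Over the 13 arrays, the genes whose levels ran most like each member were found among 5052 genes with enough signal and spread. Pearson's r is given as a description, since arrays of a group share their source and the groups set most of the spread. For Lgr5 they were Axin2 (r = 0.965), Rnf43 (0.949) and Abi2 (0.946). Rnf43 had Axin2 (0.980), Abi2 (0.961) and Ppp2r2b (0.955). For Tnfrsf19 the nearest gene was Lgr5 itself (0.920), then Plxnb1 (0.914) and Large2 (0.913), so members and Axin2 recur on these short lists.

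Lgr4, Znrf3 and Lgr6 had other neighbours. Lgr4 ran most like Lgals2 (0.943), Akr1c14 (0.943) and E2f2 (0.922). All had their highest group mean in glands and their lowest in EGFNWR organoids. Lgals2 read 12.26 and 12.39 in glands against 7.38, 6.18 and 8.10. For E2f2 the arrays overlapped, with gland array a at 6.42 and chief array a at 6.63. Znrf3 ran like the ubiquitin ligase gene Wwp1 (0.970), Syt3 (0.969) and Jade1 (0.968). For Lgr6 they were Gm94 (0.976), the desmosomal cadherin gene Dsc3 (0.961) and P3h2 (0.956), which read 8.19, 7.78 and 8.70 in chief array b. Without that array the last 3 values were 0.843, 0.678 and 0.657, so much of the likeness rests on 1 array.

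Among the members, Lgr5 and Rnf43 gave r = 0.982 over the 7 arrays of the first experiment and 0.963 over the 6 organoid arrays. Rnf43 and Znrf3 gave 0.981 in each. Lgr5 and Znrf3 gave 0.964 and 0.935, and Lgr5 and Tnfrsf19 gave 0.907 and 0.980. Lgr4 ran against Lgr5, at -0.704 and -0.906. The differences between groups make up most of these values.

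**Figure D4:**
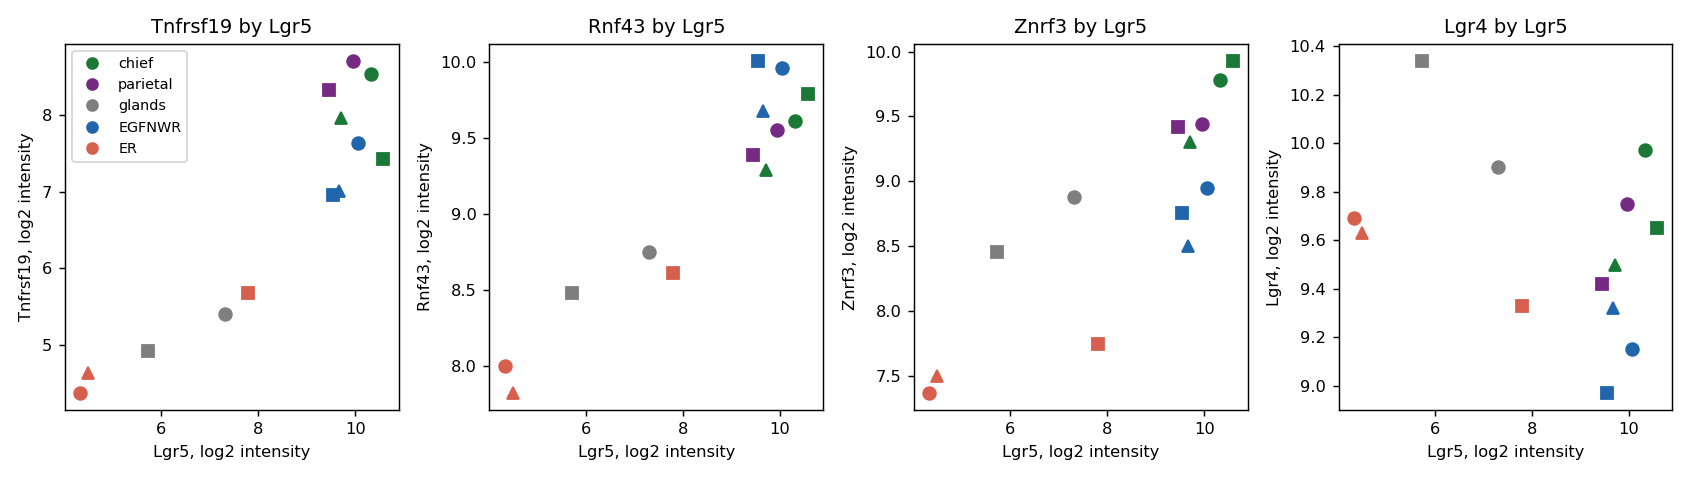
Log2 intensity of Tnfrsf19, Rnf43, Znrf3 and Lgr4 (vertical axes) against that of Lgr5 (horizontal axis) on the 13 arrays; colour is the group, and circles, squares and triangles are replicates a, b and c. ER array b, with Lgr5 at 7.80, stands between the other ER arrays and the EGFNWR arrays for Lgr5, and Lgr4 is the member whose levels do not rise with Lgr5.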

How the data were processed

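RNA of 13 samples was hybridised to Affymetrix arrays, 1 sample each. The authors deposited log2 values of 35556 probesets, made with RMA and Affymetrix Power Tools per the submitters' processing notes, whose versions and settings are not stated there. RMA gives arrays nearly the same distribution, so a shift shared by most genes would not show. Of the probesets, 21218 had 1 gene symbol in the platform annotation, 1881 several and 12457 none; 21185 were matched to RefSeq (GRCm38.p6). The brightest single-symbol probeset stood for each of 18820 genes.

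Each array took its group from its title. The sorted cells and glands (7 arrays) and the 6 organoid arrays were fitted separately, and organoids against chief cells over all 13, with lmFit and eBayes of limma 3.58.1 in R 4.3.3, tested on simulated data. Adjusted p-values are Benjamini-Hochberg values over all genes, with a threshold of 0.05. The number of arrays limits the precision.

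The members and lists were chosen with earlier results of these data known. Named genes were the members; per list and comparison, up to 4 genes past the threshold with the largest change in each direction, of which the text prints examples, or the 2 brightest where none passed, printed only for some lists; markers beside member results; and the 3 genes most correlated with each member, among genes with a group mean above 5.15 and an SD of at least 0.5. Axin2, Myc, Ccnd1, Smoc2, Lrp5, Lrp6, Ctnnb1, Tnfrsf21 and the Rspondin genes are also given where they did not pass, chosen after their values were seen. Alternatives were repeated quantile normalisation, median centring, a filter on dim genes, eBayes with trend and robust, the mean of a gene's probesets, other arrays in the fit, a replicate block and leaving out each array.

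Between EGFNWR and ER arrays of the same letter, deviations from the group mean gave correlations of 0.184, 0.233 and 0.386. Different letters gave -0.305 to 0.146. The letters may therefore pair the cultures, which the labels do not state. The values printed are from the unpaired fit, with the blocked value beside an organoid result of a member whose call it changes.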

Additional observations from a re-analysis of the deposited data

How the results depend on the processing

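The number of members past the threshold stayed at 0 between chief and parietal cells under every alternative run. For chief cells against glands it went from 2 to 4 with all 13 arrays in 1 fit, to 0 with the replicate block, and to between 0 and 2 when each array was left out. For parietal cells against glands it went from 2 to 1 with repeated quantile normalisation, to 4 with all 13 arrays, to 3 with the replicate block, and to between 0 and 2 with arrays left out. Between the media it stayed at 3 to 5 around the value of 4, and Lgr5 missed the threshold with eBayes trend and robust (adjusted p = 0.0629) and without EGFNWR array a (-4.06, adjusted p = 0.0583). For EGFNWR organoids against chief cells it went from 2 to 1 with median centring and in a fit of the 2 groups alone. It rose with repeated quantile normalisation, where Tnfrsf19 also passed, and went to between 1 and 3 with arrays left out. ER organoids against chief cells gave 4 or 5. Directions turned only for members near 0. Chief minus parietal Lgr4 ranged from -0.043 to 0.29 and Rnf43 from -0.02 to 0.23 with arrays left out. ER minus EGFNWR Lgr6 was -0.015 with repeated quantile normalisation and ranged from -0.068 to 0.077 with arrays left out, and ER minus chief Lgr4 was 0.043 with median centring.

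Over all genes, chief against parietal cells gave 0 calls, 166 with all 13 arrays, 1364 with the replicate block and 1319 without chief array c. Chief cells against glands gave 90, then 58 with quantile normalisation, 1215 with all 13 arrays, 0 with the replicate block and from 17 without gland array b to 438 without chief array a. Parietal cells against glands gave 304, then 109, 2707 and 1787, and from 2 without either parietal array to 408 without gland array a. The media gave 3613, then 1705 with all 13 arrays and from 1900 without EGFNWR array a to 3518 without ER array b. Against chief cells, EGFNWR organoids gave 7587 and ER organoids 7514, or 4731 and 5000 with the replicate block. In the first experiment same-letter deviations correlated at -0.194 to 0.263, which does not settle whether the letters pair arrays there. The cause of these changes was not tested. Among the members, signals below the array median limit Lgr6 throughout and the low ends of Lgr5 and Tnfrsf19. The same limit holds for other named genes with some or all arrays of a group below the median. Examples are Fzd2, Axin2 and Ascl2 in ER organoids, Smoc2 in glands, Tnfrsf11b in chief cells and Edaradd in organoids. The sizes of their differences are not settled either.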
